A study of Mus musculus with 42 samples.

Results

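Immune checkpoint and T cell exhaustion genes were followed as a set of 9 genes chosen by name: the T cell receptors and exhaustion-associated genes Pdcd1, Lag3, Havcr2, Tigit, Tox, Entpd1 and Tnfrsf9, and the PD-1 ligands Cd274 and Pdcd1lg2. All 9 were found among the 26811 genes of the count table, and all 9 were among the 16932 genes with enough reads to be tested. The series holds 42 tumors grown from MC38, an established mouse colon carcinoma line of C57BL/6J origin, each profiled as bulk poly(A) RNA. The hosts were CC75×B6 animals, that is female F1 mice of CC075/UncJ and C57BL/6J aged 8 to 12 weeks, with MC38 cells injected under the skin. From engraftment the animals were given blocking antibodies or their isotype controls every 3 days, 100 µg for aGM-CSF (against the myeloid growth factor GM-CSF) and 200 µg for aIL2RB (against the beta chain shared by the receptors for IL-2 and IL-15). Once a tumor measured 75 to 110 mm3, the animal received a single 200 µg dose of aPD1, an antibody to PD-1, or of its isotype control, and the tumor was taken 48 h later. Of the 5 groups, the isotype group had 5 tumors and the aPD1 group 6. Blocking GM-CSF as well gave 9 tumors (aPD1+aGM-CSF), blocking IL2RB gave 11 (aPD1+aIL2RB), and blocking both gave another 11 (aPD1+aGM-CSF+aIL2RB). The aPD1 group also carried the isotype controls of the blocking antibodies, no group received a blocking antibody without aPD1, and all tumors came from 1 tumor line in 1 host cross. The labels number the tumors of a group as biological replicates, and the p-values measure the spread between tumors.

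PD-1, the product of Pdcd1, is an inhibitory receptor that appears on T cells after antigen recognition and recruits the phosphatase SHP2 to dampen signals from the T cell receptor. Its ligands PD-L1 (Cd274) and PD-L2 (Pdcd1lg2) sit on other cells: PD-L1 is made by tumor cells and many leukocytes under interferon-gamma, and PD-L2 mainly by dendritic cells and macrophages. T cells that meet antigen for a long time add further inhibitory receptors, LAG-3, TIM-3 (Havcr2) and TIGIT, under the transcription factor TOX, and this state is called exhaustion. CD39 (Entpd1) removes extracellular ATP and also marks exhausted CD8 T cells, and 4-1BB (Tnfrsf9) is a costimulatory receptor of recently activated T cells. TIM-3 and CD39 are also made by macrophages and dendritic cells, so in whole tumor RNA these genes are not read from T cells alone.

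By the GENCODE annotation of GRCm38, all 9 genes are protein coding. Pdcd1 lies on the minus strand at chr1:94038305-94052553, Lag3 on the minus strand at chr6:124904361-124911705, Havcr2 on the plus strand at chr11:46454935-46481255, Tigit on the minus strand at chr16:43648867-43664146, Tox on the minus strand at chr4:6686353-6991557, Entpd1 on the plus strand at chr19:40612366-40741602 and Tnfrsf9 on the plus strand at chr4:150914562-150946102. The ligand genes are neighbours on the plus strand, Cd274 at chr19:29367455-29388095 and Pdcd1lg2 at chr19:29410919-29471161. Between them lie 22.824 kb with 0 protein-coding genes, and the pair is flanked by Plgrkt and Ric1. The 250 bases upstream of an annotated start were available from RefSeq (GRCm38.p6) for 7 of the 9 genes, with 9 starts in all. The upstream stretches of both ligands are shown because these genes are neighbours and are described side by side below, and that of a downstream start of Tnfrsf9 because it held matches to 3 of the 4 motifs searched, which are in capitals.
Cd274, chr19:29367188-29367437, plus strand: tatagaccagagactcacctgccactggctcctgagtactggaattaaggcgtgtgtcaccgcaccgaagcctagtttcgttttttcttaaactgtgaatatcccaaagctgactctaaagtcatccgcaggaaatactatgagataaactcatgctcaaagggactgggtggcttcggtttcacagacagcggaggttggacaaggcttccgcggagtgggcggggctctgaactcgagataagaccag
Pdcd1lg2, chr19:29410669-29410918, plus strand: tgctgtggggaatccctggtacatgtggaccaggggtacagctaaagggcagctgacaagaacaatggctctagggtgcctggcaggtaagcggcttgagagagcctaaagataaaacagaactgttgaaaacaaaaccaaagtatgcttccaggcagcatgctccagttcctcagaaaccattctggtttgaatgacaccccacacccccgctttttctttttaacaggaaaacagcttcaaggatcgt
Tnfrsf9, chr4:150927749-150927998, plus strand: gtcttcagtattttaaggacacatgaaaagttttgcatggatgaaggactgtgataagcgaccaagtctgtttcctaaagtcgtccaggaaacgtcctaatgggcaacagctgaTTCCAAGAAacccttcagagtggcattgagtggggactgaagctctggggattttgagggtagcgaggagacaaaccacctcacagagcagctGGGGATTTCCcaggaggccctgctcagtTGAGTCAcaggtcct

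Both strands were searched for a GAS-type palindrome (TTCNNNGAA), an ISRE-type repeat (GAAA on either side of 2 free bases), an NF-kB-type motif (GGG and TTTCC with 2 free bases between them) and an AP-1-type motif (TGANTCA). Among all 32851 stretches of the same length, 7.02% held the GAS-type, 2.98% the ISRE-type, 1.41% the NF-kB-type and 6.75% the AP-1-type letters. In the Tnfrsf9 stretch the matches started 136, 43 and 15 bases before the start, and did not overlap each other. Havcr2 held an AP-1-type match, TGATTCA, 200 bases before its start. No match was found in the stretches of the other 5 genes, both ligands included, which says only that these letters are not in this window.

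Library totals ran from 15109228 to 24101674 expected read counts, except for replicate 4 of aPD1+aGM-CSF+aIL2RB with 7155486. The members differed widely in depth. Cd274 had 488 to 4210 reads per tumor, Entpd1 433 to 2763 and Havcr2 274 to 1602, whereas Tigit had 1 to 140, Tox 0 to 167 and Pdcd1lg2 0 to 85, with 21 of 42 tumors under 10 reads for Pdcd1lg2. Levels are given in CPM, reads relative to the library total scaled by TMM factors, and a change was called when the edgeR quasi-likelihood test over all genes and tumors gave a Benjamini-Hochberg adjusted p under 0.05. Along the replicate numbers the tumors fall into an earlier set of 22 (isotype 1 and 2, aPD1 1 to 3, aPD1+aGM-CSF 1 to 5, and 1 to 6 of both aIL2RB groups) and a later set of 20. Neither the labels nor the methods of the study name this division, but the sets differed in many genes and values within each set are given below. Fits within a set hold fewer tumors, and the share of all genes they called is not given. Counts of members called within each set are therefore not a comparison of the sets. The epithelial markers Epcam, Krt8 and Krt18, which a colon carcinoma might carry, summed to 0 to 13.98 CPM. Their sum was at most 1.92 CPM in the earlier and at least 1.70 CPM in the later set.

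Per kilobase of exon the PD-1 ligand Cd274 was the most abundant member in every group and its neighbour Pdcd1lg2 was among the lowest. In isotype tumors the mean level was 16.5 ± 2.57 CPM per kb (SD, n = 5) for Cd274, 10.7 ± 1.46 for Havcr2 and 8.27 ± 0.765 for Entpd1. Tnfrsf9 followed with 4.52 ± 0.660 CPM per kb, Pdcd1 with 3.50 ± 1.11, Tigit with 2.54 ± 0.583 and Lag3 with 2.22 ± 0.747, and neighbours in this order of 4 did not differ beyond their SDs. Pdcd1lg2 with 0.739 ± 0.218 and Tox with 0.234 ± 0.0619 CPM per kb were the lowest. The order of the first 3 genes was the same in all 5 groups.

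**Figure D1:**
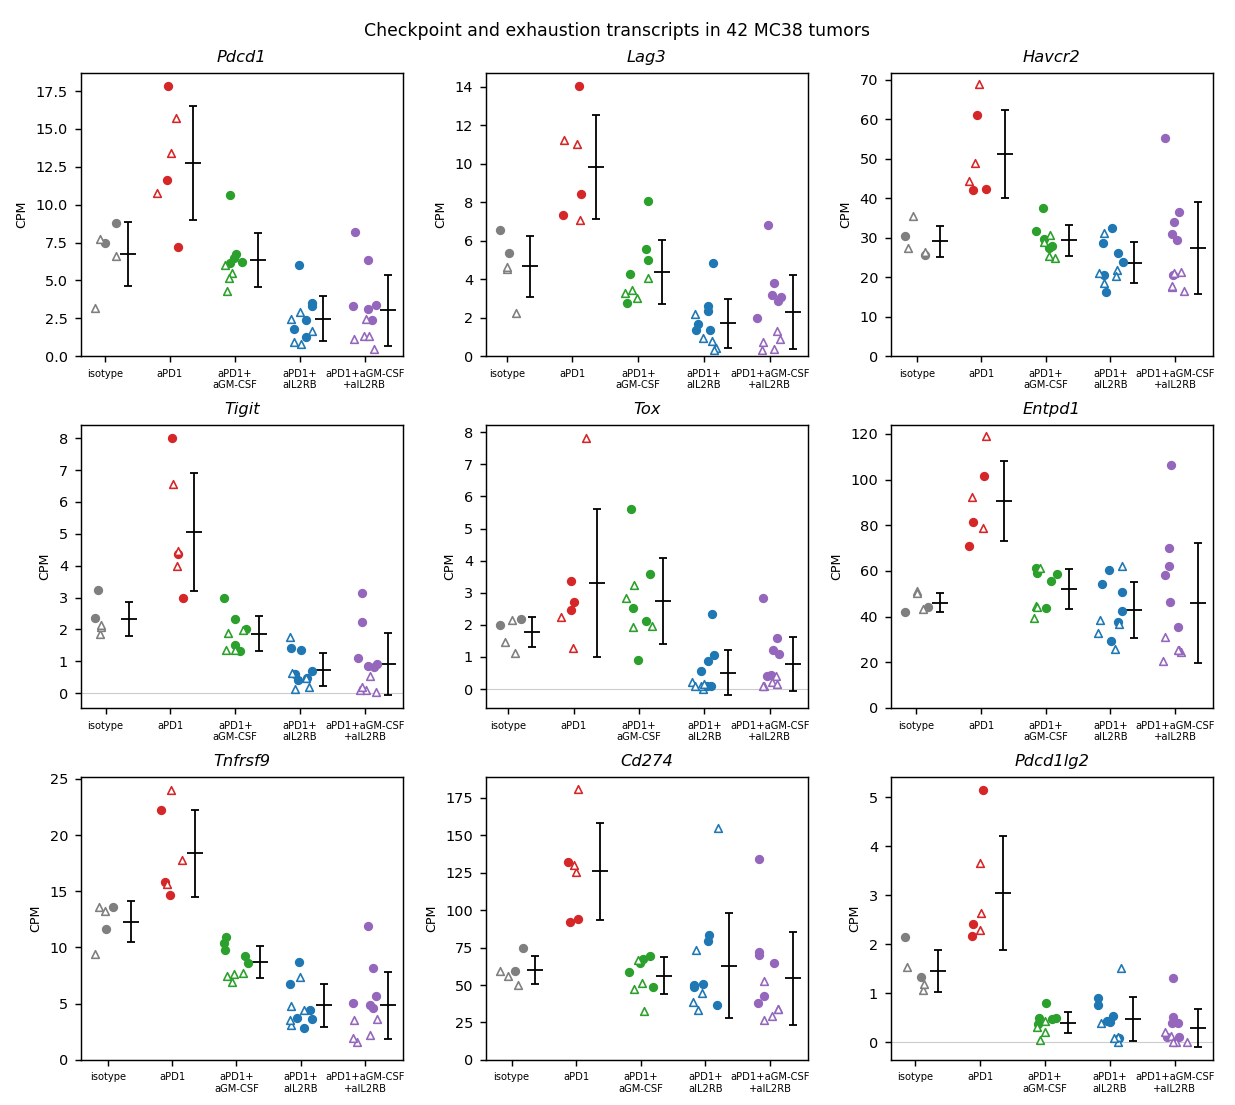
Level of each member in every tumor, in CPM (linear axes), by treatment group. Filled circles are tumors of the earlier and open triangles of the later replicate numbers, and black bars are the group mean ± SD over n = 5, 6, 9, 11 and 11 tumors. The aPD1 tumors were the highest on average for all 9 genes, and 1 aPD1+aGM-CSF+aIL2RB tumor (replicate 1) stood at the top of its group for all 9.

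Did a single dose of aPD1 change the checkpoint genes of the tumor within 48 h? All 9 members had a higher mean after aPD1, and 3 rose by the test: Havcr2, Entpd1 and the ligand Cd274, each about 1.77- to 2.11-fold. Pdcd1, Lag3, Tigit and Pdcd1lg2 had fold changes of 1.89, 2.11, 2.17 and 2.10 but larger errors, and were not called. Of all genes tested 6.17% rose in this comparison. The median log2 fold change was 0.97 over the 9 members against -0.00 over all genes. It was 0.92 over the 7 receptor and exhaustion genes and 1.07 over the 2 ligands.

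Among the receptor and exhaustion genes, Pdcd1 itself was at 7.46, 8.76, 3.18, 6.63 and 7.71 CPM in the 5 isotype tumors. Its lowest, median and highest aPD1 tumors were at 7.20, 12.5 and 17.8 CPM. The groups overlapped by 1 low aPD1 tumor (replicate 2) against the upper isotype tumors, and the log2 fold change was 0.92 ± 0.42 (SE; edgeR adjusted p = 0.168). Lag3, a receptor for MHC class II and other ligands, was at 5.38, 6.57, 2.27, 4.52 and 4.62 CPM in isotype tumors against 7.07, 9.73 and 14.03 CPM (lowest, median, highest) after aPD1. These Lag3 values did not overlap, but with a log2 fold change of 1.08 ± 0.50 the edgeR adjusted p was 0.173. Tigit was at 2.36, 3.24, 1.86, 2.07 and 2.15 CPM in isotype tumors against 3.00, 4.42 and 8.01 CPM after aPD1. Its groups met at their edges and its log2 fold change was 1.11 ± 0.53 (edgeR adjusted p = 0.190).

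Havcr2, which encodes TIM-3, was at 25.7, 30.4, 26.5, 27.3 and 35.4 CPM in isotype tumors and at 42.01, 46.6 and 68.9 CPM (lowest, median, highest) after aPD1. Every aPD1 tumor was above every isotype tumor, and the log2 fold change was 0.82 ± 0.21 (edgeR adjusted p = 0.0131). Entpd1 was at 41.8, 44.1, 51.2, 43.4 and 50.3 CPM in isotype tumors and at 70.8, 86.9 and 119 CPM after aPD1. It also did not overlap, with a log2 fold change of 0.97 ± 0.28 (edgeR adjusted p = 0.0227). Tnfrsf9 was at 11.7, 13.6, 13.6, 13.3 and 9.43 CPM against 14.7, 16.8 and 24.1 CPM after aPD1. Its groups were apart, yet the change was the smallest of the 9 at 0.58 ± 0.30 on the log2 scale (edgeR adjusted p = 0.234). Tox, the transcription factor of the exhausted state, was at 1.98, 2.19, 1.11, 1.48 and 2.15 CPM in isotype tumors. After aPD1 it was at 1.28, 2.59 and 7.82 CPM, so that the groups overlapped and the highest tumor (replicate 6) stood far above the rest (log2 fold change 0.90 ± 0.67, edgeR adjusted p = 0.435).

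Of the ligands, Cd274 was at 59.2, 75.0, 55.8, 49.8 and 59.3 CPM in isotype tumors and at 92.2, 128 and 181 CPM (lowest, median, highest) after aPD1. The groups did not overlap and the log2 fold change was 1.07 ± 0.33 (edgeR adjusted p = 0.0325). Pdcd1lg2 was at 1.32, 2.15, 1.06, 1.18 and 1.54 CPM in isotype tumors against 2.16, 2.52 and 5.15 CPM after aPD1. It was just as much higher, but on 21 to 85 reads per tumor the error was larger (log2 fold change 1.07 ± 0.65, edgeR adjusted p = 0.320). In total, every aPD1 tumor lay above every isotype tumor for 6 of the 9 members, where 3.38% of all genes did so.

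Marker genes of several cell types were also higher after aPD1. The sum of 8 T cell markers (Cd3d, Cd3e, Cd3g, Cd5, Trac, Cd8a, Cd8b1 and Cd4) ranged from 31.8 to 58.1 CPM in isotype and from 69.1 to 135 CPM in aPD1 tumors, with 0 of 8 called by edgeR and 0 of 8 under an unadjusted p of 0.05. Of the 16932 genes tested 4074 were under an unadjusted p of 0.05. The sum of 6 monocyte and macrophage markers ranged from 2007 to 2437 CPM and from 2315 to 4559 CPM, with 5 of 6 higher, and the pan-leukocyte gene Ptprc from 149.7 to 180.4 CPM and from 205 to 412 CPM. Fibroblast markers were higher in 3 of 3 (sums of 442.5 to 766 CPM in isotype and 451 to 1677 CPM in aPD1 tumors), endothelial markers in 2 of 3 (108 to 149 and 123 to 182 CPM), granulocytic markers in 1 of 2 (9.78 to 13.2 and 17.03 to 42.7 CPM) and cDC1 (type 1 dendritic cell) markers in 1 of 3 (57.9 to 70.9 and 80.4 to 126 CPM). The MC38 marker Shisal2b had a log2 fold change of -0.47 and was not called. In bulk tumors, more cells of a type and more RNA per cell cannot be told apart. The part of these cell types in the member values was not tested.

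The 3 calls were sensitive to single tumors. Without aPD1 replicate 4, which had the highest Havcr2, Entpd1, Tnfrsf9 and Cd274 of its group, 0 members were called (edgeR adjusted p 0.0505 for Havcr2, 0.0707 for Entpd1 and 0.1003 for Cd274, with log2 fold changes of 0.72, 0.88 and 0.94). The call of Entpd1 was also lost without isotype replicate 1, 2 or 4, and that of Cd274 without aPD1 replicate 1 or 6 or isotype replicate 1, 3, 4 or 5, with log2 fold changes over these fits of 0.88 to 0.95 for Entpd1 and 0.94 to 1.07 for Cd274. A fit of the isotype and aPD1 tumors alone called 8 of 9, where 1042 of the 15397 genes in that fit rose. Within the earlier set (3 against 2 tumors) 0 of 9 were called, with log2 fold changes of 0.79 for Havcr2, 0.98 for Entpd1 and 0.66 for Cd274. Within the later set (3 against 3) Havcr2 (0.88), Entpd1 (1.02) and Cd274 (1.42) were called.

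**Figure D2:**
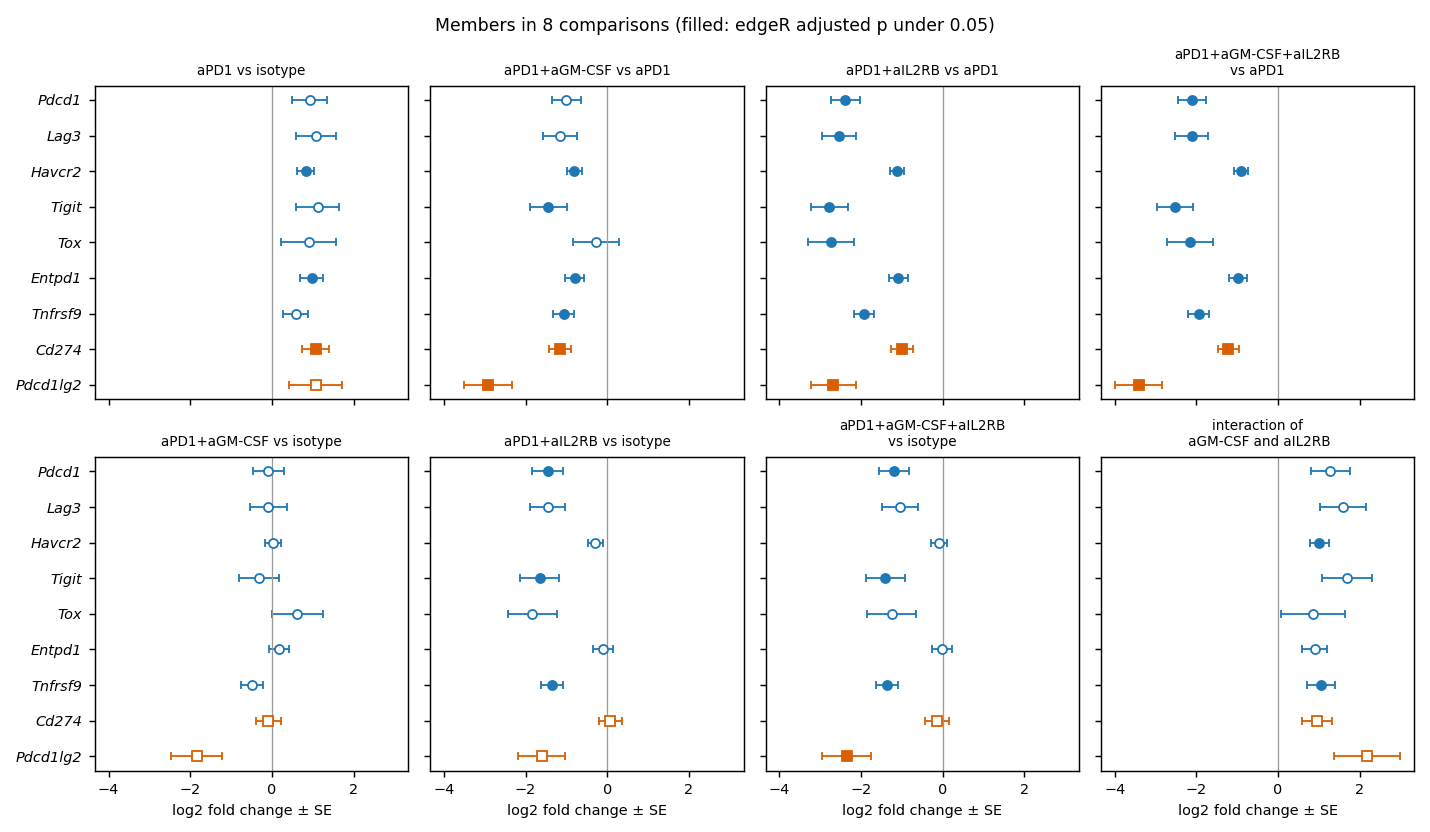
Log2 fold change ± SE of the 9 members in 7 comparisons and in the interaction of aGM-CSF and aIL2RB, from the edgeR fit of all 42 tumors. Blue circles are the receptor and exhaustion genes, orange squares the PD-1 ligands, and filled symbols have an adjusted p under 0.05. Against aPD1 all 9 are filled and negative in both aIL2RB groups, and all 9 lie above 0 in aPD1 against isotype. In both aIL2RB groups against isotype Pdcd1, Tigit and Tnfrsf9 are filled below 0, and Havcr2, Entpd1 and Cd274 lie between -0.29 and 0.08 and are open.

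No group was given aGM-CSF without aPD1, so a rise with aPD1 under GM-CSF blockade cannot be measured. The next question was therefore whether the checkpoint genes stayed at the aPD1 level when GM-CSF was blocked as well. They did not stay at the aPD1 level: 6 members were lower in aPD1+aGM-CSF than in aPD1 tumors, namely Havcr2, Tigit, Entpd1, Tnfrsf9 and both ligands, where 8.75% of all genes were lower. Pdcd1lg2 fell the most, and Pdcd1 and Lag3 missed the threshold narrowly. Tox had about the same level in both groups. The median log2 fold change was -1.07 over the 9 members (-1.004 over the receptor and exhaustion genes and -2.04 over the ligands) against 0.01 over all genes. The comparisons with aPD1 below share the same 6 aPD1 tumors, so a low or high aPD1 tumor enters all of them.

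With aGM-CSF the lowest, median and highest of the 9 tumors were at 24.7, 28.8 and 37.6 CPM for Havcr2. All 9 lay below all aPD1 tumors, at a log2 fold change of -0.81 ± 0.18 (edgeR adjusted p = 0.00231). Tnfrsf9 was at 6.90, 8.63 and 10.9 CPM, again below every aPD1 tumor (-1.07 ± 0.26, edgeR adjusted p = 0.00439). Entpd1 was at 39.3, 55.7 and 61.3 CPM (-0.80 ± 0.24, edgeR adjusted p = 0.0180). Tigit was at 1.34, 1.88 and 2.98 CPM, just under the lowest aPD1 tumor (-1.44 ± 0.45, edgeR adjusted p = 0.0272). For Pdcd1, Lag3 and Tox the groups overlapped. Pdcd1 was at 4.30, 6.13 and 10.6 CPM (-1.004 ± 0.36, edgeR adjusted p = 0.0525) and Lag3 at 2.78, 4.08 and 8.08 CPM (-1.17 ± 0.42, edgeR adjusted p = 0.0568). In both genes the overlap came from 1 tumor, replicate 4 of aPD1+aGM-CSF, which was the highest of its group for 8 of the 9 members. Tox was at 0.913, 2.52 and 5.60 CPM, a log2 fold change of -0.28 ± 0.57 (edgeR adjusted p = 0.808).

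Both ligands were lower. Cd274 was at 32.3, 58.8 and 69.3 CPM with aGM-CSF, below every aPD1 tumor (-1.16 ± 0.28, edgeR adjusted p = 0.00375). Pdcd1lg2 was at 0.0479, 0.427 and 0.799 CPM, on 1 to 13 reads per tumor, against 35 to 85 reads in aPD1 tumors. This was a fold of 0.132, or -2.92 ± 0.59 on the log2 scale (edgeR adjusted p = 0.000913), the largest change of the 9. The difference between the ligands themselves was not tested. For 6 of the 9 members no aPD1+aGM-CSF tumor reached the lowest aPD1 tumor, where 2.20% of all genes were apart in this way.

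The T cell marker sum ranged from 27.1 to 74.8 CPM with aGM-CSF, against 69.1 to 135 CPM with aPD1, and the macrophage sum from 1741 to 2143 CPM, with 2 of 8 (8 of 8 at an unadjusted p under 0.05) and 5 of 6 markers lower. Of the 16932 genes tested 4680 had an unadjusted p under 0.05. Of the mature dendritic cell markers Ccr7, Fscn1 and Ccl22, 2 of 3 were lower, of the granulocytic markers 2 of 2, of the fibroblast markers 2 of 3, and of the cDC1 and the regulatory T cell markers 1 of 3 each, and Ptprc had a log2 fold change of -0.81. The part of these cells was not tested. The call of Tigit was lost without aPD1 replicate 1, 4 or 6 (edgeR adjusted p up to 0.0788) and that of Entpd1 without aPD1 replicate 4 (0.0717). Without aPD1 replicate 2, or without aPD1+aGM-CSF replicate 4, Pdcd1 and Lag3 were called as well (log2 fold changes of -1.34 to -1.12). Within the earlier set 0 of 9 members were called and within the later set 8 of 9, all but Tox, which had log2 fold changes of 0.05 and -0.63 in the 2 sets. A test of the difference between the sets called no member (edgeR adjusted p from 0.519 upwards) and 1 of the 16932 genes tested.

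Blocking IL2RB lowered every member: all 9 were lower in aPD1+aIL2RB than in aPD1 tumors, where 14.5% of all genes were lower. Tigit was at a fold of 0.146, Tox 0.150, Pdcd1lg2 0.157, Lag3 0.172, Pdcd1 0.192 and Tnfrsf9 0.262 of the aPD1 level. Havcr2, Entpd1 and Cd274 were at 0.462, 0.472 and 0.500. Differences between members were not tested. The median log2 fold change was -2.38 over the 9 members against 0.00 over all genes.

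In the 11 aPD1+aIL2RB tumors Pdcd1 was at 0.809, 2.37 and 6.02 CPM (lowest, median, highest), with a log2 fold change of -2.38 ± 0.35 (edgeR adjusted p = 1.79e-06). Lag3 was at 0.296, 1.38 and 4.83 CPM (-2.54 ± 0.41, edgeR adjusted p = 8.23e-06). Tigit was at 0.135, 0.593 and 1.75 CPM (-2.77 ± 0.45, edgeR adjusted p = 7.68e-06). None of these tumors reached the lowest aPD1 tumor for the 3 receptors. Tox was at 0, 0.163 and 2.32 CPM (-2.73 ± 0.57, edgeR adjusted p = 0.000283). It was listed at 0 in 1 tumor and under 10 reads in 7 of 11, and its highest tumor (replicate 3) overlapped the aPD1 group. Tnfrsf9 was at 2.83, 4.40 and 8.70 CPM (-1.93 ± 0.25, edgeR adjusted p = 3.30e-07).

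Havcr2 was at 16.2, 21.8 and 32.3 CPM with aIL2RB (-1.12 ± 0.17, edgeR adjusted p = 4.45e-06) and Entpd1 at 25.9, 38.3 and 62.1 CPM (-1.08 ± 0.22, edgeR adjusted p = 0.000256). Both stayed below every aPD1 tumor. Cd274 was at 33.1, 50.2 and 155 CPM (-0.9997 ± 0.26, edgeR adjusted p = 0.00338), and its highest tumor (replicate 9) lay within the aPD1 range. Pdcd1lg2 was at 0, 0.417 and 1.52 CPM (-2.68 ± 0.54, edgeR adjusted p = 0.000207), on 0 to 32 reads. The groups were apart for 7 of 9 members, all but Tox and Cd274, where 2.99% of all genes were.

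The T cell marker sum ranged from 3.73 to 31.3 CPM with aIL2RB, with 7 of 8 markers lower, 0 of 11 tumors at 0 for Cd3d, Cd3e, Cd3g, Trac, Cd8a, Cd8b1 and Cd4 and 1 of 11 at 0 for Cd5. The NK cell markers Ncr1, Klrb1c, Klra8, Klre1 and Eomes were lower in 5 of 5, and the macrophage sum ranged from 1629.8 to 2539 CPM, with 5 of 6 markers lower. Fibroblast and regulatory T cell markers were lower in 3 of 3 each, and cDC1 and B cell markers in 2 of 3 each. Of the mature dendritic cell markers 2 were lower and 1 higher. Granulocytic markers were lower in 1 of 2, endothelial markers higher in 1 of 3, Ptprc had a log2 fold change of -1.29, and the MC38 marker Shisal2b was higher (0.70). The part of these cells was not tested. All 9 calls held when each of the 17 tumors was left out in turn. Within the earlier set 8 of 9 were called, with Tox at -1.78 (edgeR adjusted p = 0.0622), and within the later set all 9.

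With both blocking antibodies all 9 members were again lower than with aPD1, where 14.3% of all genes were lower, and the folds resembled those of aIL2RB. Pdcd1lg2 was at 0.0937 of the aPD1 level, Tigit at 0.173, Tox at 0.225, Lag3 at 0.231, Pdcd1 at 0.232 and Tnfrsf9 at 0.260. Cd274, Entpd1 and Havcr2 were at 0.431, 0.504 and 0.531. The groups were apart for only 3 of 9 members (Lag3, Tnfrsf9 and Pdcd1lg2), where 0.827% of all genes were.

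Pdcd1 was at 0.471, 2.46 and 8.23 CPM (lowest, median, highest of 11) with a log2 fold change of -2.11 ± 0.35 (edgeR adjusted p = 1.41e-05). Lag3 was at 0.330, 1.96 and 6.81 CPM (-2.12 ± 0.41, edgeR adjusted p = 0.000122), and Tigit at 0.0471, 0.833 and 3.14 CPM (-2.53 ± 0.45, edgeR adjusted p = 3.85e-05). Tox was at 0.0890, 0.419 and 2.83 CPM (-2.15 ± 0.56, edgeR adjusted p = 0.00325). These 4 genes spread widely within the group, with replicate 1 at the top in each. Tnfrsf9 was at 1.59, 4.61 and 11.9 CPM (-1.94 ± 0.25, edgeR adjusted p = 3.26e-07). Havcr2 was at 16.4, 21.2 and 55.3 CPM (-0.91 ± 0.17, edgeR adjusted p = 9.81e-05), and Entpd1 at 20.4, 35.4 and 106 CPM (-0.99 ± 0.23, edgeR adjusted p = 0.000869). For these 2 genes the tumors spread from below the isotype group up to replicate 1, the only tumor in the aPD1 range. The same held for Pdcd1, Tigit and Cd274.

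Cd274 was at 26.5, 42.97 and 134 CPM (-1.21 ± 0.26, edgeR adjusted p = 0.000491). Pdcd1lg2 was at 0, 0.120 and 1.31 CPM (-3.42 ± 0.57, edgeR adjusted p = 1.77e-05), listed at 0 in 3 of 11 tumors and under 10 reads in 9. For Pdcd1, Havcr2, Tigit, Entpd1 and Cd274 replicate 1 was the 1 tumor that reached the aPD1 range, and for Tox replicates 1 and 4 did. Replicate 1 had a T cell marker sum of 71.4 CPM in a group range of 0.975 to 71.4 CPM. Cd3e, Cd3g, Cd5, Cd8a and Cd8b1 were at 0 in 1 of the 11 tumors each, and the macrophage sum ranged from 1420.3 to 3011 CPM. Against aPD1, T cell markers were lower in 8 of 8, NK cell markers in 5 of 5, macrophage markers in 5 of 6, and mature dendritic cell, cDC1 and regulatory T cell markers in 2 of 3 each. B cell and fibroblast markers were lower in 1 of 3 each, granulocytic markers in 1 of 2, endothelial markers higher in 1 of 3, and Ptprc had a log2 fold change of -0.98. Of all genes 13.1% were higher in this comparison. All 9 calls held when each of the 17 tumors was left out in turn, replicate 1 included, and the part of T cell content was not tested. Within the earlier set 5 of 9 were called (Pdcd1, Lag3, Tigit, Tnfrsf9 and Pdcd1lg2) and within the later set all 9.

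Set against isotype, Pdcd1, Tigit and Tnfrsf9 were lower with aIL2RB, with and without aGM-CSF, and Pdcd1lg2 with both antibodies. Lag3 and Tox were not called in any blocked group. Havcr2, Entpd1 and Cd274 had log2 fold changes from -0.29 to 0.17 in the 3 blocked groups, none called. With both antibodies these values near 0 average sets that lay on opposite sides of isotype. Havcr2 was at 0.29 in the earlier and -0.67 in the later set (edgeR adjusted p = 0.599 and 0.00809) and Entpd1 at 0.55 and -0.93 (0.307 and 0.00426), so that both were called lower in the later set. The comparisons with isotype share the same 5 isotype tumors.

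In aPD1+aGM-CSF against isotype 0 of 9 members were called by edgeR in either direction, where 0% of all genes rose and 0% fell. DESeq2 also called 0 members, and 1 member, Pdcd1lg2, had an unadjusted p under 0.05, as had 938 of the 16932 genes tested. The log2 fold changes were -0.09 ± 0.38 for Pdcd1, -0.09 ± 0.46 for Lag3, 0.01 ± 0.20 for Havcr2, -0.33 ± 0.49 for Tigit and 0.17 ± 0.26 for Entpd1. Tox was at 0.62 ± 0.62, Tnfrsf9 at -0.49 ± 0.28 and Cd274 at -0.09 ± 0.30. Pdcd1lg2 was at -1.85 ± 0.62 (edgeR p = 0.00471, adjusted p = 0.787), and all 9 aGM-CSF tumors, up to 0.799 CPM, lay below all 5 isotype tumors, from 1.06 CPM, where 0.154% of all genes were apart in this way.

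In aPD1+aIL2RB against isotype 3 members were lower, where 1.51% of all genes were. Pdcd1 fell to 0.362 of the isotype level (log2 fold change -1.46 ± 0.37, edgeR adjusted p = 0.0194), Tigit to 0.317 (-1.66 ± 0.47, edgeR adjusted p = 0.0411) and Tnfrsf9 to 0.391 (-1.35 ± 0.26, edgeR adjusted p = 0.00209). Lag3 was at -1.46 ± 0.44 (edgeR adjusted p = 0.0518), Tox at -1.84 ± 0.61 (0.0841) and Pdcd1lg2 at -1.61 ± 0.58 (0.120). The median log2 fold change was -1.46 over the 9 members against 0.01 over all genes. Tnfrsf9 was called whichever of the 16 tumors was left out. Pdcd1 was not called without isotype replicate 2 or 5 (edgeR adjusted p up to 0.0650), and Tigit was not called in 13 of the 16 fits without 1 tumor, all but those without aPD1+aIL2RB replicate 3, 4 or 9 (up to 0.120). Lag3 was called without aPD1+aIL2RB replicate 3 or 9 or isotype replicate 3, Tox without aPD1+aIL2RB replicate 3 and Pdcd1lg2 without aPD1+aIL2RB replicate 9, so that between 1 and 5 members were called. With the set as a term 5 were called, within the earlier set 1 and within the later set 4. The share of all genes called in these fits is not given. A test of the difference between the sets called no member and 4 of the 16932 genes tested. T cell markers were lower than in isotype in 5 of 8 (median log2 fold change -1.98), NK cell markers in 3 of 5 (-2.69) and B cell markers in 1 of 3 (-0.36). Endothelial markers were higher in 2 of 3 (0.37), where 1.70% of all genes rose. The part of these cells was not tested.

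In aPD1+aGM-CSF+aIL2RB against isotype 4 members were lower, where 4.51% of all genes were. These were Pdcd1 (fold 0.439, log2 fold change -1.19 ± 0.37, edgeR adjusted p = 0.0342), Tigit (0.376, -1.41 ± 0.48, edgeR adjusted p = 0.0497), Tnfrsf9 (0.388, -1.37 ± 0.26, edgeR adjusted p = 0.00133) and Pdcd1lg2 (0.197, -2.35 ± 0.60, edgeR adjusted p = 0.0123). Lag3 was at -1.04 ± 0.44 and Tox at -1.25 ± 0.60. Tnfrsf9 and Pdcd1lg2 were called whichever of the 16 tumors was left out, Tigit in 2 of the 16 fits (adjusted p up to 0.143) and Pdcd1 in all but those without isotype replicate 1, 2, 4 or 5 or aPD1+aGM-CSF+aIL2RB replicate 8 (up to 0.104). Without aPD1+aGM-CSF+aIL2RB replicate 1, Lag3 (-1.37) and Tox (-1.75) were called too. Within the earlier set 0 of 9 members were called and within the later set 8 of 9, all but Cd274. By a test of the difference between the sets, 1 member, Entpd1, had a lower fold change in the later set. Of the 16932 genes tested 116 were lower in this way. T cell markers were lower in 4 of 8 (median log2 fold change -1.52), NK cell markers in 3 of 5 (-2.37) and mature dendritic cell markers in 1 of 3 (-0.22). Endothelial markers were higher in 2 of 3 (0.49), where 5.69% of all genes rose. The part of these cells was not tested.

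Among the blocked groups, aPD1+aIL2RB tumors had less Pdcd1 (log2 fold change -1.38 ± 0.32, edgeR adjusted p = 0.0152), Tox (-2.46 ± 0.53, edgeR adjusted p = 0.00785) and Tnfrsf9 (-0.86 ± 0.23, edgeR adjusted p = 0.0417) than aPD1+aGM-CSF tumors, 3 of 9 members where 0.898% of all genes were lower. The call of Tnfrsf9 was lost in 13 of the 20 fits without 1 tumor (adjusted p up to 0.0840). With both antibodies against aGM-CSF alone, Tox (-1.88 ± 0.52, edgeR adjusted p = 0.0457) and Tnfrsf9 (-0.87 ± 0.23, edgeR adjusted p = 0.0364) were lower, 2 of 9 where 1.15% of all genes were. The calls of Tox and Tnfrsf9 were lost in 16 and 11 of the 20 fits without 1 tumor (up to 0.0906 and 0.0636). Within the earlier and later sets 1 and 2 members were called in the first of these comparisons, and 0 and 7 in the second. In the first comparison T cell markers were lower in 5 of 8 (median log2 fold change -1.72) and NK cell markers in 4 of 5 (-2.85), and in the second in 1 of 8 (-1.35) and 4 of 5 (-3.11). Their part was not tested. The ligands were not called in either comparison, with log2 fold changes of 0.16 ± 0.24 and -0.05 ± 0.24 for Cd274 and 0.24 ± 0.55 and -0.50 ± 0.58 for Pdcd1lg2.

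With aGM-CSF added to aIL2RB 0 of 9 were called by edgeR and 0 by DESeq2 between aPD1+aGM-CSF+aIL2RB and aPD1+aIL2RB, 0 had an unadjusted p under 0.05, and 0.00591% of all genes rose and 0% fell. Of the 16932 genes tested 1212 had an unadjusted p under 0.05. The log2 differences ranged from -0.74 ± 0.54 for Pdcd1lg2 to 0.58 ± 0.54 for Tox. The interaction term, which is the effect of aGM-CSF in the presence of aIL2RB minus its effect without it among aPD1-treated tumors, was above 0 for all 9 members and called for 2, where 5.29% of all genes were called above 0. These were Havcr2 (1.01 ± 0.24, edgeR adjusted p = 0.00728) and Tnfrsf9 (1.06 ± 0.34, edgeR adjusted p = 0.0475). Havcr2 kept its call whichever of the 37 tumors was left out and Tnfrsf9 lost it in 24 of the 37 fits (adjusted p up to 0.108). Pdcd1 (1.28 ± 0.48), Lag3 (1.59 ± 0.57), Tigit (1.69 ± 0.62), Entpd1 (0.90 ± 0.31), Cd274 (0.95 ± 0.36) and Pdcd1lg2 (2.18 ± 0.81) had edgeR adjusted p from 0.0589 to 0.0915, and Tox (0.86 ± 0.78) had 0.552. With the set as a term 5 members were called. The same interaction was above 0 and called for 5 of 6 macrophage markers (median 0.75), for Ptprc (1.12), for 2 of 8 T cell markers (1.81) and for 2 of 3 fibroblast markers (0.76). It was also called above 0 for 1 of 3 B cell markers (2.08) and 1 of 2 granulocytic markers (1.89). For the MC38 marker Shisal2b it was called below 0 (-0.79), where 3.05% of all genes were. The part of these cells was not tested.

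The 2 sets of replicate numbers differed in 6 members. Averaged over the groups, these were lower in the later set, where 11.5% of all genes were: Lag3 (log2 difference -1.05 ± 0.22, edgeR adjusted p = 0.000588), Tox (-1.06 ± 0.35, 0.0222), Tigit (-0.76 ± 0.28, 0.0361), Pdcd1 (-0.73 ± 0.20, 0.00586), Tnfrsf9 (-0.41 ± 0.15, 0.0382) and Entpd1 (-0.39 ± 0.13, 0.0274). Havcr2 was at -0.26 ± 0.10 and the ligands Cd274 at -0.22 ± 0.17 and Pdcd1lg2 at -0.85 ± 0.36, none of them called. The average did not hold in each group. Entpd1 had a higher mean in the later set in isotype (48.3 against 42.98 CPM) and aPD1 tumors (96.6 against 84.6 CPM), as had Pdcd1, Havcr2, Tox, Tnfrsf9 and Cd274 in aPD1 tumors. The later set had the lower mean for 7 of 9 members in isotype tumors, 3 of 9 in aPD1 tumors, 9 of 9 with aGM-CSF, 8 of 9 with aIL2RB and 9 of 9 with both antibodies. All 8 T cell markers were lower in the later set, and the epithelial markers Epcam, Krt8 and Krt18 higher, where 13.6% of all genes were higher. Lower as well were 2 of 6 macrophage, 2 of 3 mature dendritic cell and 1 of 2 granulocytic markers. Of the regulatory T cell and B cell markers 1 of 3 each was lower. The part of these cells in the difference was not tested.

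The tumors given both blocking antibodies differed between the sets. Their fall from the aPD1 level was larger in the later set for 7 of 9 members by a test of that difference, where 6.55% of all genes were lower in this way. The difference of log2 fold changes was -2.92 ± 0.78 for Tigit (edgeR adjusted p = 0.0143), -3.12 ± 0.96 for Tox (0.0343), -2.30 ± 0.61 for Lag3 (0.0141), -1.86 ± 0.58 for Pdcd1 (0.0360), -1.51 ± 0.33 for Entpd1 (0.00419), -1.49 ± 0.41 for Tnfrsf9 (0.0187) and -1.04 ± 0.29 for Havcr2 (0.0177). Cd274 was at -1.45 ± 0.49 (0.0524) and Pdcd1lg2 at -2.64 ± 1.18 (0.157). With aIL2RB alone the same difference for Tox was as large, -3.14 ± 1.00, but not called (edgeR adjusted p = 0.118). In CPM, Pdcd1 was at 2.40 to 8.23 in the 6 earlier and at 0.471 to 2.46 in the 5 later tumors of this group, and Entpd1 at 35.4 to 106 and at 20.4 to 30.97. The ranges of the sets were apart for Lag3, Tigit, Tnfrsf9 and Entpd1 and overlapped for the other 5. The share of all genes apart in this way is not given, so this only describes the members. Entpd1 also differed between the sets in the comparisons of this group with isotype (-1.48 ± 0.37, edgeR adjusted p = 0.0364) and with aPD1+aIL2RB (-1.09 ± 0.28, edgeR adjusted p = 0.0350). The T cell marker sum of this group ranged from 12.8 to 71.4 CPM in the earlier and from 0.975 to 6.18 CPM in the later set. Its macrophage sum ranged from 2162 to 3011 CPM and from 1420 to 1658 CPM, and Ptprc from 125 to 368 CPM and from 86.8 to 130 CPM. The part of these cells was not tested.

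**Figure D3:**
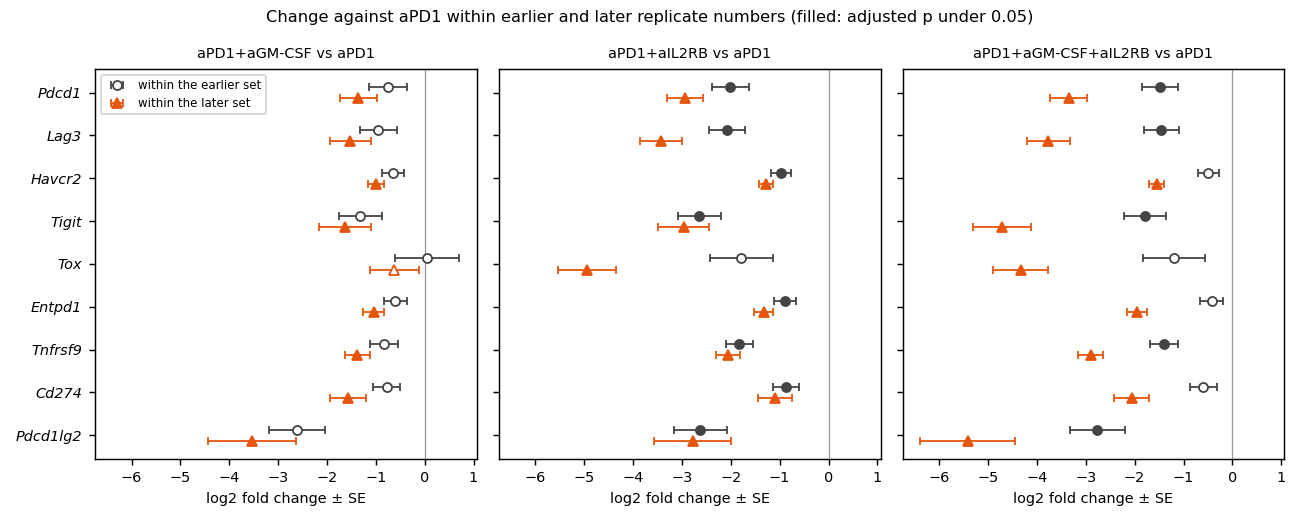
Log2 fold change ± SE of each member against aPD1, fitted within the earlier (dark circles) and within the later (orange triangles) replicate numbers, for the 3 blocked groups. Filled symbols have an edgeR adjusted p under 0.05. With both antibodies the later set lies further below 0 for all 9 members, for Pdcd1 at -3.35 against -1.48, and with aIL2RB Tox is furthest apart at -4.95 against -1.78.

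With 7 of 8 T cell markers lower than in aPD1 tumors with aIL2RB, 8 of 8 with both antibodies and 2 of 8 with aGM-CSF, each member was also read against the mean log2 CPM of Cd3d, Cd3e and Cd3g, as a description with no test. Against these genes Pdcd1 was no lower with aIL2RB than without it: its mean log2 difference was 0.41 ± 0.28 (SD, n = 5) in isotype and 0.41 ± 0.23 (n = 6) in aPD1 tumors, 0.64 ± 0.15 with aGM-CSF, 1.10 ± 0.41 with aIL2RB and 1.25 ± 0.89 with both. Lag3 ran from -0.12 ± 0.27 in isotype to 0.76 ± 0.63 with both antibodies, and Tigit from -1.08 ± 0.32 with aGM-CSF to -0.56 ± 0.55 with aIL2RB. The group means of these 3 receptors on this scale were within 1 log2 unit of the isotype mean, but not under other choices. With a prior count of 0.5, Pdcd1 was 1.07 and Lag3 1.06 above isotype with both antibodies. Against the mean of Cd8a and Cd8b1, Pdcd1 was 1.32 and 1.33 above isotype with aIL2RB and with both antibodies, Lag3 1.21 and 1.35 and Tigit 1.10 and 0.87. Tnfrsf9 was at 1.33 ± 0.48 in isotype and 2.16 ± 0.69 with aIL2RB.

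Havcr2, Entpd1 and Cd274 were higher against the Cd3 genes with aIL2RB. Havcr2 went from 2.56 ± 0.31 in isotype to 4.49 ± 0.66 with aIL2RB, Entpd1 from 3.23 ± 0.44 to 5.32 ± 0.61 and Cd274 from 3.60 ± 0.25 to 5.78 ± 0.79. Against Cd8a and Cd8b1 they were 2.55, 2.71 and 2.80 above isotype with aIL2RB. Tox was at -1.42 ± 0.13 in isotype, -1.67 ± 0.63 in aPD1 and -0.64 ± 0.51 in aPD1+aGM-CSF tumors, the highest of its 5 group means, whereas against Cd8a and Cd8b1 its highest mean was with both antibodies (-1.15, against -1.63 with aGM-CSF). Pdcd1lg2 was lowest with aGM-CSF, at -3.14 ± 0.73 against -1.70 ± 0.11 in isotype. With few reads of the Cd3 genes left in the aIL2RB groups, these differences also depend on the count that is added before taking logs.

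**Figure D4:**
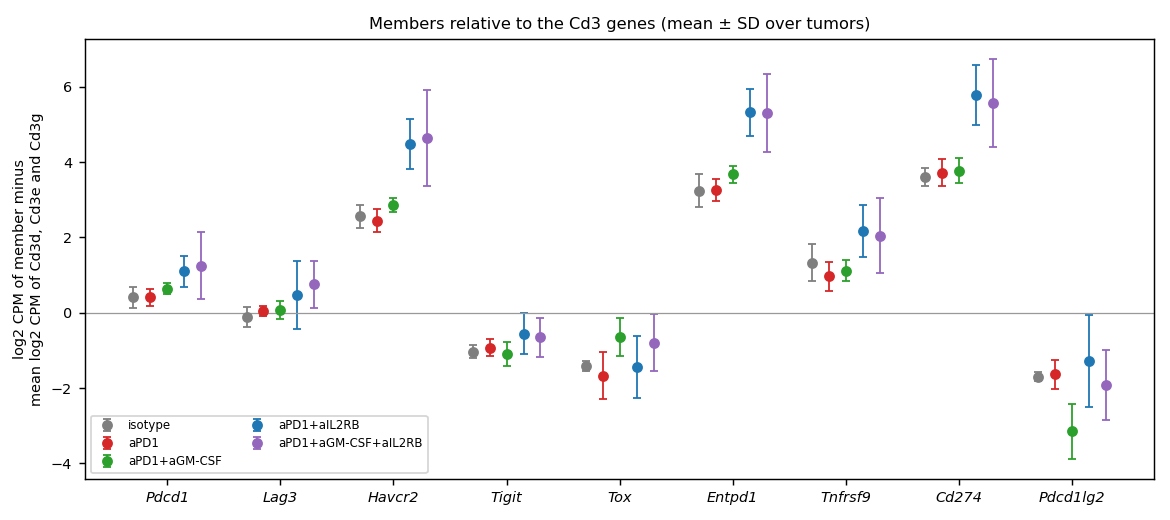
Mean log2 CPM of each member minus the mean log2 CPM of Cd3d, Cd3e and Cd3g, with the SD over the tumors of a group. Havcr2, Entpd1 and Cd274 are about 2 log2 units higher in the aIL2RB groups than in isotype, Pdcd1, Lag3 and Tigit less than 1 (up to 1.35 when Cd8a and Cd8b1 are the reference), and Pdcd1lg2 is lowest with aGM-CSF.

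Over the 42 tumors the members kept company with different genes. These correlations describe tumors that share treatment groups, sets and cell content, and carry no test. The 3 genes most like Pdcd1 in log2 CPM were Tigit (Pearson r = 0.96), Ms4a4b (0.95) and Cd2 (0.95), the last an adhesion receptor of T and NK cells. For Tigit they were Cd2 (0.97), Pdcd1 (0.96) and Nkg7 (0.96), a gene of cytotoxic granules, and for Lag3 they were Ms4a4b (0.93), Trac (0.92), which encodes the T cell receptor alpha constant region, and Cd8a (0.91). Tox was closest to Ikzf3 (0.90), Pdcd1 (0.89) and Il2rb (0.89), the last encoding the receptor chain that aIL2RB binds, and Tnfrsf9 to Gzmb (0.95), the granzyme B gene, Acap1 (0.94) and Nkg7 (0.94). Havcr2 and Entpd1 had myeloid and pan-leukocyte neighbours instead. Havcr2 was closest to Ptprc (0.96), Igsf6 (0.95) and Cybb (0.95), a subunit of the phagocyte NADPH oxidase, and Entpd1 to Cybb (0.95), Ptprc (0.95) and Mpeg1 (0.95), the macrophage perforin-2 gene.

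The ligands had different nearest genes. Cd274 was closest to Gbp5 (r = 0.97) and Irgm1 (0.96), interferon-induced GTPase genes, and had r = 0.67 with Cd3e. Pdcd1lg2 was closest to Slc7a2 (0.86), Icos (0.86) and B4galnt1 (0.85), and had r = 0.76 with Cd274. After the means of group and set were removed, r was 0.94 for Cd274 with Gbp5, 0.85 for Pdcd1 with Tigit and 0.86 for Havcr2 with Entpd1, but 0.59 for Cd274 with Pdcd1lg2 and 0.55 for Pdcd1 with Lag3.

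**Figure D5:**
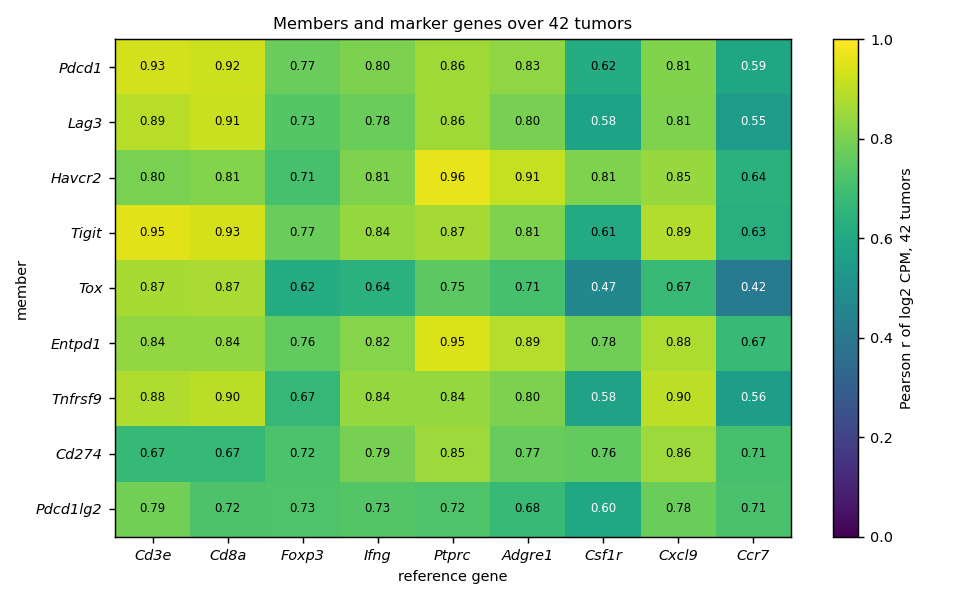
Pearson r of log2 CPM over 42 tumors between each member (rows) and marker genes of T cells (Cd3e, Cd8a, Foxp3), interferon-gamma (Ifng), all leukocytes (Ptprc), macrophages (Adgre1, Csf1r), interferon response (Cxcl9) and mature dendritic cells (Ccr7). Pdcd1, Lag3 and Tigit are brightest with Cd3e and Cd8a, Havcr2 and Entpd1 with Ptprc, and Cd274 with Cxcl9 and Ptprc.

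Other genes of the checkpoint system were read from 6 lists. For comparison, 6.17% of all genes rose with aPD1, and 8.75% with aGM-CSF, 14.5% with aIL2RB and 14.3% with both antibodies were lower than with aPD1. Of 10 other inhibitory receptors, 1 rose with aPD1 (Vsir, encoding VISTA, log2 fold change 0.49 ± 0.16, edgeR adjusted p = 0.0440). With aGM-CSF 5 of 10 were lower than with aPD1, among them Cd200r1 (-1.26 ± 0.28), Pilra (-0.42 ± 0.12), Vsir (-0.49 ± 0.14) and Ctla4 (-1.71 ± 0.51). With aIL2RB 9 of 10 were lower, led by Cd96 (-3.41 ± 0.56), Cd160 (-2.03 ± 0.35), Cd244a (-1.24 ± 0.22) and Cd200r1 (-1.53 ± 0.27), and with both antibodies also 9 of 10. The list medians were 0.66, -0.65, -1.38 and -1.15 in these 4 comparisons.

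Of 7 costimulatory receptors (Cd28, Icos, Cd27, Tnfrsf4, Tnfrsf18, Cd226 and Cd2) 0 were called with aPD1 by edgeR, 4 had an unadjusted p under 0.05, as had 4074 of the 16932 genes tested, and the median log2 fold change was 1.14. With aGM-CSF 3 were lower than with aPD1 (Icos -1.85 ± 0.50, Tnfrsf4 -1.18 ± 0.34 and Cd2 -1.60 ± 0.52), and with aIL2RB 7 of 7, among them Icos (-2.94 ± 0.49), Cd2 (-3.07 ± 0.52), Cd226 (-3.73 ± 0.70) and Cd28 (-2.31 ± 0.47). With both antibodies 7 of 7 were lower. Receptors that restrain and receptors that assist T cells were therefore lower together in the aIL2RB groups.

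Of 14 transcription factors of exhausted and effector T cells 13 could be tested, and 1 rose with aPD1 (Bcl6, 0.39 ± 0.13). With aGM-CSF 5 of 13 were lower than with aPD1, among them Batf (-1.17 ± 0.26), Id2 (-0.79 ± 0.19), Irf4 (-1.45 ± 0.38) and Nr4a3 (-1.28 ± 0.34). With aIL2RB 8 of 13 were lower, led by Tbx21 (-3.23 ± 0.52), the T-bet gene of effector and NK cells, Irf4 (-2.19 ± 0.36), Batf (-1.44 ± 0.25) and Id2 (-1.01 ± 0.18). With both antibodies 7 were lower and 1 higher. Of 6 genes of PD-1 signaling, Ptpn6, the SHP1 phosphatase, rose with aPD1 (0.82 ± 0.20), and with aIL2RB 5 of 6 were lower than with aPD1, including Lck (-3.03 ± 0.40), Zap70 (-3.10 ± 0.47), Ptpn6 (-1.21 ± 0.16) and Csk (-0.37 ± 0.07).

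Among the ligands and partners of the members, 12 of 13 could be tested. With aPD1 3 rose: Lgals9 (0.44 ± 0.09), which encodes the TIM-3 ligand galectin-9, Cd86 (1.02 ± 0.23), a ligand of CD28 and CTLA-4, and Ceacam1 (0.89 ± 0.23), a partner of TIM-3. With aGM-CSF 5 of 12 were lower than with aPD1, among them Lgals9 (-0.38 ± 0.07), Ceacam1 (-0.81 ± 0.20), Cd86 (-0.78 ± 0.20) and Lgals3 (-0.87 ± 0.22), and with aIL2RB 5 were lower and 1 higher. Of 9 genes of the interferon-gamma response, a known inducer of Cd274, 1 rose with aPD1, Cxcl10 (0.88 ± 0.26). With aGM-CSF 3 of 9 were lower than with aPD1 (Cxcl10 -0.94 ± 0.22, Cxcl9 -1.33 ± 0.44 and Irf1 -0.31 ± 0.11), with aIL2RB 7 of 9 and with both antibodies 8 of 9. Ifng itself was at 1.53 ± 0.64 after aPD1 (edgeR adjusted p = 0.129) and lower with aIL2RB than with aPD1 (-2.28 ± 0.51, edgeR adjusted p = 0.000683).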

How the data were processed

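Bulk RNA of 42 tumors was read as 100-base read pairs after a poly(A) library preparation. The authors aligned reads with Bowtie 1.2.3 (per the labels) to transcriptomes of the Collaborative Cross founder strains built on GRCm38 and GENCODE genes, and deposited expected counts per gene, which were rounded to whole numbers. Reads shared by near-identical genes are divided by estimation in such counts. Genes were kept by the edgeR filter (minimum count 10, minimum total 15). All tumors entered 1 edgeR 4.0.16 quasi-likelihood model (R 4.3.3, TMM factors) with a coefficient per group, and p-values were adjusted over all genes of a comparison. SE is the absolute log2 fold change divided by the square root of F. Log2 CPM used a prior count of 2. The procedure was tested on simulated data. Alternatives were DESeq2 1.42.0, other normalizations and filters, only the groups compared, a replicate block, the set of replicate numbers as a term or within sets, and each tumor left out. The 9 members, the gene lists and the sets were chosen with earlier results of these data known. Named from each list were at most 4 genes with the smallest p, and for each member the 3 genes with the highest r, except that 1 gene is not reported here. Gene positions came from a GENCODE release for GRCm38 older than the authors' release. Fgl1, Tox2 and Retnlg failed the filter. Columns of per-sample values were all used.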

Additional observations from a re-analysis of the deposited data

Results flagged for a closer look

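Among 27 groups of 4 to 10 tumors tested for a single outlying tumor, of which chance flags about 1 in 20, 2 stood out. For Pdcd1, aPD1+aGM-CSF replicate 4 was at 10.6 CPM, with a gap to its nearest tumor of 0.611 of the group's range. For Tox, aPD1 replicate 6 was at 7.82 CPM, with a gap of 0.683 of the range.

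The change from aPD1 with both blocking antibodies differed between the later and earlier sets of replicate numbers by a test of that difference. On the log2 scale the later minus earlier difference was -1.86 for Pdcd1, -2.30 for Lag3, -1.04 for Havcr2, -2.92 for Tigit, -3.12 for Tox, -1.51 for Entpd1 and -1.49 for Tnfrsf9. Entpd1 differed in the same way against isotype (-1.48) and against aPD1+aIL2RB (-1.09). The T cell marker sum of the aPD1+aGM-CSF+aIL2RB tumors averaged 28.9 CPM in the earlier and 3.58 CPM in the later set. Their macrophage sum averaged 2361 and 1578 CPM. The part of these cells in the differences was not tested.

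The effect of aGM-CSF with aIL2RB minus its effect without it was 1.01 for Havcr2 and 1.06 for Tnfrsf9 on the log2 scale by the interaction term.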

How the results depend on the processing

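All 47 called member values kept their sign under each alternative run. The counts of members called by edgeR moved as follows. With at least 10 counts in every tumor, 5 members could be tested and 5 were called against aPD1 with aIL2RB, and 5 with both antibodies, with 2 in aPD1+aGM-CSF+aIL2RB against isotype. In fits of only the groups compared, 8 were called in aPD1 against isotype, 2 in aPD1+aGM-CSF+aIL2RB against isotype, 5 with aIL2RB and 1 with both antibodies against aPD1+aGM-CSF, and 1 in the interaction. Scaling by library size only, and a filter on a total of at least 5 counts, each gave 1 in aPD1+aGM-CSF+aIL2RB against aPD1+aGM-CSF and 1 in the interaction. With the set as a term the counts were 5 in aPD1+aIL2RB against isotype, 4 in aPD1+aGM-CSF+aIL2RB against aPD1+aGM-CSF and 5 in the interaction. Within the earlier set they were 0 in aPD1 against isotype, 0 in aPD1+aGM-CSF against aPD1, 5 in aPD1+aGM-CSF+aIL2RB against aPD1, 1 and 0 in the aIL2RB groups against isotype, and 1 and 0 in these against aPD1+aGM-CSF. Within the later set they were 8 in aPD1+aGM-CSF+aIL2RB against isotype and 7 against aPD1+aGM-CSF. The cause was not tested, beyond there being fewer genes or tumors.

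Same-numbered tumors did not deviate together (67 pairs, r from -0.168 to 0.193, median 0.0348, 16 over 0.1), so the numbers were not taken to pair them. With the replicate block Tigit lost its call in aPD1+aGM-CSF against aPD1 (log2 fold change -1.10, edgeR adjusted p = 0.0926). It also lost it in aPD1+aIL2RB against isotype (-1.24, edgeR adjusted p = 0.0777). In this fit 2 members were called in aPD1+aGM-CSF+aIL2RB against isotype, 4 against aPD1+aGM-CSF and 1 in the interaction, and log2 values that had not been called changed sign. These were, against isotype, 0.24 for Pdcd1, 0.33 for Lag3 and 0.028 for Cd274 in aPD1+aGM-CSF, 0.20 for Entpd1 in aPD1+aIL2RB, and 0.056 for Havcr2, 0.19 for Entpd1 and 0.0042 for Cd274 in aPD1+aGM-CSF+aIL2RB, and 0.28 for Tox in aPD1+aGM-CSF against aPD1.

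Leaving out 1 tumor gave 0 to 3 members in aPD1 against isotype, 4 to 8 in aPD1+aGM-CSF, 9 to 9 with aIL2RB and 9 to 9 with both antibodies against aPD1. Against isotype it gave 0 to 0, 1 to 5 and 2 to 6 in these 3 groups, against aPD1+aGM-CSF 2 to 5 and 0 to 5 in the aIL2RB groups, and 1 to 6 in the interaction. Other values near 0 that changed sign, none of them called, were Havcr2 in aPD1+aGM-CSF against isotype (-0.0096 with library size only, -0.036 with the set as a term, -0.12 in the later set, -0.045 to 0.094 without 1 tumor), Havcr2 in aPD1+aGM-CSF+aIL2RB against isotype (0.29 in the earlier set), Tox in aPD1+aGM-CSF against aPD1 (0.055 in the earlier set, -0.49 to 0.19 without 1 tumor) and, against isotype, Entpd1 in aPD1+aGM-CSF (-0.032 in the later set), in aPD1+aIL2RB (0.091 in the earlier set) and in aPD1+aGM-CSF+aIL2RB (0.55 in the earlier set, -0.22 to 0.056 without 1 tumor). Cd274 against isotype was at -0.15 to 0.0024 without 1 tumor in aPD1+aGM-CSF, -0.21 in the earlier set and -0.15 to 0.17 without 1 tumor in aPD1+aIL2RB, and 0.067 in the earlier set in aPD1+aGM-CSF+aIL2RB. Pdcd1 and Lag3 in aPD1+aGM-CSF against isotype were at -0.26 to 0.022 and -0.26 to 0.059 without 1 tumor. Depth limits Pdcd1lg2, Tox, Tigit and Lag3, which had under 10 reads in 21, 13, 9 and 4 of 42 tumors.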
